A study of Mus musculus with 17 samples.

Results

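The genes described here are 9 whose products carry ions, small molecules, and water across the membrane of astrocytes: the connexins *Gja1*, *Gjb6*, and *Gjb2*, the inward rectifier potassium channels *Kcnj10* and *Kcnj16*, the two-pore potassium channels *Kcnk1* and *Kcnk2*, the water channel *Aqp4*, and the sodium pump subunit *Atp1b2*. They were chosen by symbol, and all 9 were found among the 26556 genes counted in 17 libraries of astrocytes purified by FACS. Each library held astrocytes from 4 pooled brains of Gfap::GFP mice of the FVB strain at postnatal day 7, with no treatment, and the groups differed in place of origin. The cortex (primary somatosensory cortex, S1) gave 4 libraries, the dorsolateral geniculate nucleus (dLG) 5, the ventral posteromedial nucleus (VPM) 4, and the ventral division of the medial geniculate nucleus (MGv) 4, so that the thalamus as a whole had 13. Sorting relied on a fluorescent reporter under the *Gfap* promoter, and *Gfap* itself ranged from 8.98 to 5519 CPM (TMM-normalized counts relative to library size) over the libraries, with a mean of 12.3 CPM in the VPM. The question addressed was whether these genes differed between cortical and thalamic astrocytes and among astrocytes of the 3 thalamic nuclei.

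Astrocytes are coupled by gap junctions, channels in which connexins of one cell dock onto those of the next, and *Gja1* and *Gjb6* encode the main connexins of this network. Potassium released by active neurons is taken up by astrocytes through the sodium pump and inward rectifier channels and is spread through the network, a process known as potassium buffering. *Kcnj10* encodes the principal inward rectifier of astrocytes, and water follows through *Aqp4*, which is concentrated at the endfeet on blood vessels.

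*Gjb6* set the nuclei apart most clearly, with 29.2 ± 5.16 CPM (SD, n = 4) in the MGv, 76.2 ± 8.27 CPM (SD, n = 5) in the dLG, and 158 ± 28.6 CPM (SD, n = 4) in the VPM. *Kcnk1* and *Kcnk2* were higher in cortical than in thalamic libraries, by 3.57-fold and 2.44-fold, and were lower than in the cortex in every nucleus. *Kcnj10* was lower in the MGv than in the other 3 places, while the levels of *Aqp4* and *Gjb2* passed the threshold in no comparison of the main fits and in 1 comparison each with other settings. These levels are plotted by library.

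**Figure D1:**
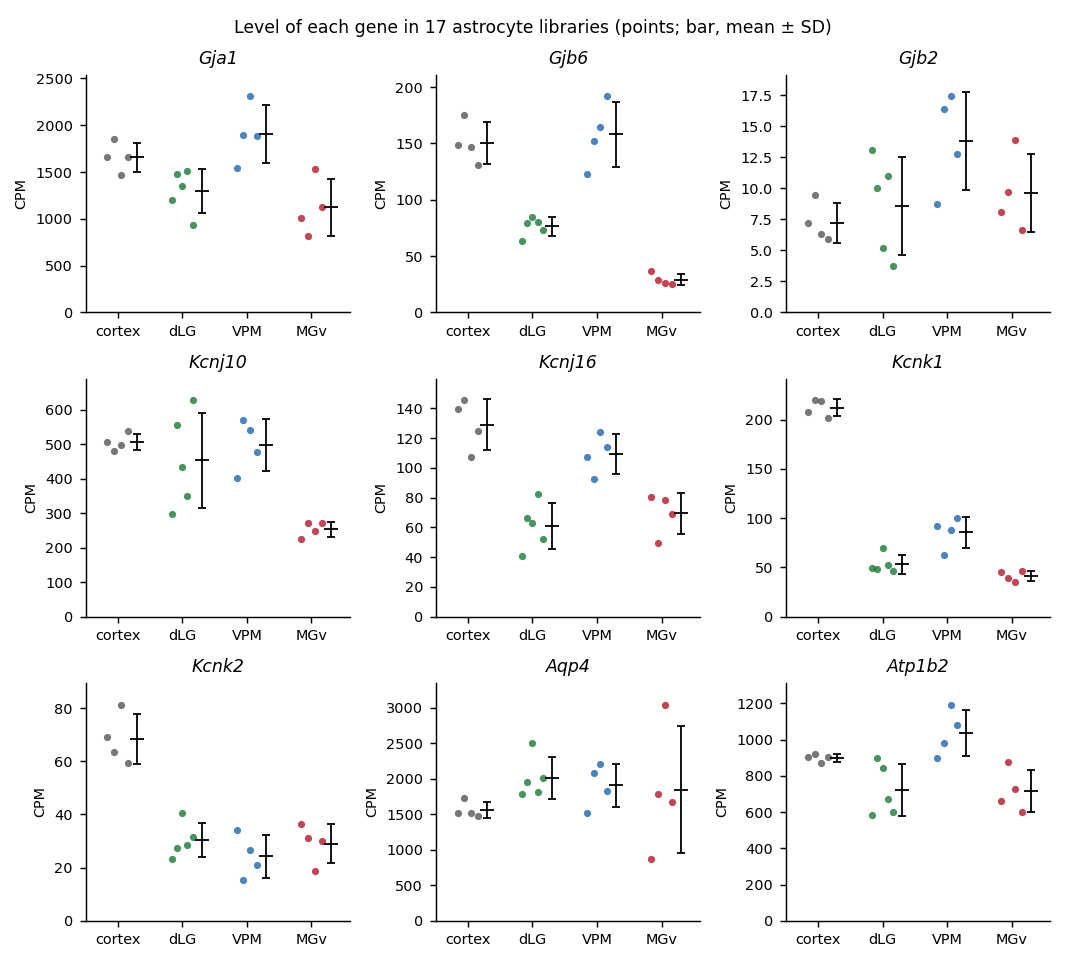
Level of each of the 9 genes (CPM, linear axis from 0) in the cortex, dLG, VPM, and MGv; each point is 1 library, and the bar is the mean ± SD of the group. The 4 cortical libraries of Kcnk1 sit between 202 and 220 CPM, above all 13 thalamic libraries, and the 4 MGv libraries of Gjb6 sit between 25.1 and 36.4 CPM, below all other libraries.

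Library totals ranged from 18213687 to 50366363 counts, and cortex replicate a, with the highest total, was the only one above 21519981. At this depth, 3 counts correspond to between 0.0596 and 0.165 CPM, and the fewest counts of any of the 9 genes in a library were 74, for *Gjb2*. Limits of this kind cover counting error only. Among the marker genes, the 9 of astrocytes summed to between 3744 and 11166 CPM per library, with 10322 to 11138 CPM in the cortex. Without *Gfap*, the other astrocyte markers summed to between 9785 and 10688 CPM in the cortex and between 3735 and 5688 CPM in the thalamus. The 10 neuronal genes summed to 444 to 1627 CPM, and the 7 oligodendrocyte lineage genes to 6120 to 11113 CPM. The latter sum was above that of the astrocyte markers in every thalamic library but MGv replicate c and below it in every cortical library. Of the astrocyte markers, *Slc1a3* alone had a mean of 5227 CPM in the cortex and of 1494 to 1679 CPM in the nuclei. Sums over different genes do not give shares of cell types. By its sum, much RNA of the oligodendrocyte lineage stands beside the label of purified astrocytes, and its part in the results was tested only as a covariate. The 6 microglial genes summed to at most 91.8 CPM and the 5 endothelial genes to at most 46.5 CPM. In such bulk samples, fewer expressing cells and less RNA per cell cannot be told apart. The sources do not state whether libraries of different places came from the same brains, and p-values measure the spread between these libraries, which may be in part technical. The labels also number the libraries, and by their leading digits these numbers form 3 series, of which the largest holds 10 libraries, with all 4 of the MGv and 2 each of the other places, and dLG replicate c is alone in its series.

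*Gjb6* and *Gjb2* are neighbors. In the mouse genome GRCm38, *Gjb6* (ENSMUSG00000040055) lies on chromosome 14 from 57123303 to 57133611, and *Gjb2* (ENSMUSG00000046352) from 57098600 to 57104702, both on the minus strand and 18600 bases apart. Since their levels took different courses over the 4 places, and since *Kcnj10* shared with *Gjb6* the low level in the MGv, the 250 bases upstream of the start site of these 3 genes are shown. The sequences are those of RefSeq on GRCm38.p6, at chr14:57133612-57133861 (minus strand) for *Gjb6*, chr14:57104703-57104952 (minus strand) for *Gjb2*, and chr1:172340960-172341209 (plus strand) for *Kcnj10*, written 5′ to 3′ toward the gene. Capitals mark matches, on either strand, to any of 6 short motifs that were searched, and a match is no evidence of binding. The TATA box was searched as TATAAA and the GC box as GGGCGG. For the half-site of nuclear factor I the letters TTGGC were used, and for the SOX motif ACAATG. The motif of STAT factors was TTCNNNGAA and that of AP-1 was TGANTCA, and no matches overlap in these windows.
Gjb6: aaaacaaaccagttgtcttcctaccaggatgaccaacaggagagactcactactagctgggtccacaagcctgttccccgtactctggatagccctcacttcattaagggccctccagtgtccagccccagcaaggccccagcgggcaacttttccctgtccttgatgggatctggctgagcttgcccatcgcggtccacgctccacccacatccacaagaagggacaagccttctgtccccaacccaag
Gjb2: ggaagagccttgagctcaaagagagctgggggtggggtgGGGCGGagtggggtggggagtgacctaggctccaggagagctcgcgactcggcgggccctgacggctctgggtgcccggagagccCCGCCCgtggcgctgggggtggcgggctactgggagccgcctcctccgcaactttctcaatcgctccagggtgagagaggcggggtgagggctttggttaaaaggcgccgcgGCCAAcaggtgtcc
Kcnj10: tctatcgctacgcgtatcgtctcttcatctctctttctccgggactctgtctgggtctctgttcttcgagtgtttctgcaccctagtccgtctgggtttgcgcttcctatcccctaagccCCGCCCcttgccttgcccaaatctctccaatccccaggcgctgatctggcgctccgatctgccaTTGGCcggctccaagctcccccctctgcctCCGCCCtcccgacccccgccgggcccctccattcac

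The *Gjb6* window held 5 CpG dinucleotides and none of the 6 motifs. The *Gjb2* window held 18 CpG dinucleotides, 2 GC boxes, whose first bases were at -211 and -126 from the start site, and 1 nuclear factor I half-site at -14. The *Kcnj10* window held 17 CpG dinucleotides, 2 GC boxes at -130 and -36, and 1 nuclear factor I half-site at -66. Among 32851 mouse promoter windows of the same length, the median was 6 CpG dinucleotides, with quartiles of 2 and 16, so that *Gjb2* and *Kcnj10* lay above the upper quartile and *Gjb6* below the median. A GC box was found in 32.7% of these windows, the half-site in 41.5%, the TATA box in 12.4%, the SOX motif in 10.7%, the STAT motif in 7.02%, and the AP-1 motif in 6.75%. Promoter windows were taken for 7 of the 9 genes, all but *Aqp4* and *Atp1b2*. For the 9 genes, windows on chromosome 18, where *Aqp4* lies, were left out.

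For the comparisons, genes were tested by edgeR’s quasi-likelihood method, with p-values adjusted after Benjamini-Hochberg (BH) for the 17856 genes left by its filter on low counts, and DEGs are genes with an adjusted p under 0.1. All 9 genes passed the filter. Over the 4 places, 7 of the 9 differed, all but *Gjb2* and *Aqp4*, where the background over all genes tested was 26.3%. The calls of *Gja1* and *Atp1b2* were lost with the mean level of 5 genes known to respond to tissue dissociation as a covariate (adjusted p of 0.26 and 0.443) and within the largest number series (adjusted p of 0.121 and 0.2001, edgeR). Between thalamus and cortex, 3 of the 9 were DEGs, all higher in the cortex (*Kcnk1*, *Kcnk2*, and *Kcnj16*), against a background of 11.4% of genes called, 5.93% higher in the cortex and 5.45% higher in the thalamus. The median log2 fold change (log2FC, thalamus over cortex) was -0.32 over the 9 genes and 0.02 over all genes tested.

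Each nucleus was also compared with the cortex. In the MGv, 6 of the 9 were lower than in the cortex (*Gja1*, *Gjb6*, *Kcnj10*, *Kcnj16*, *Kcnk1*, and *Kcnk2*), with 15.4% of all genes called and 7.51% called lower, and with the level of dissociation response genes as a covariate 3 were called. In the dLG, 4 were lower (*Gjb6*, *Kcnj16*, *Kcnk1*, and *Kcnk2*), with 19.4% called and 9.04% lower, and 4 were called with that covariate. In the VPM, 2 were lower (*Kcnk1* and *Kcnk2*), with 9% called and 5.44% lower. These 3 comparisons share the cortical libraries, and none of the 9 genes was called higher in a nucleus than in the cortex. The share of all genes called with the covariate was not counted.

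Among the nuclei, 6 of the 9 genes were higher in the VPM than in the MGv (*Gja1*, *Gjb6*, *Kcnj10*, *Kcnj16*, *Kcnk1*, and *Atp1b2*), where 15.4% of all genes were called and 7.4% were higher in the VPM. Between VPM and dLG, 5 were higher in the VPM (*Gja1*, *Gjb6*, *Kcnj16*, *Kcnk1*, and *Atp1b2*), against 13.7% of genes called and 5.76% higher in the VPM. The dLG and the MGv were the pair with the fewest DEGs, 1.02% of genes called and 0.571% higher in the dLG, yet 2 of the 9 were among them, *Gjb6* and *Kcnj10*, both higher in the dLG. Each pair of nuclei shares libraries with the others.

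**Figure D2:**
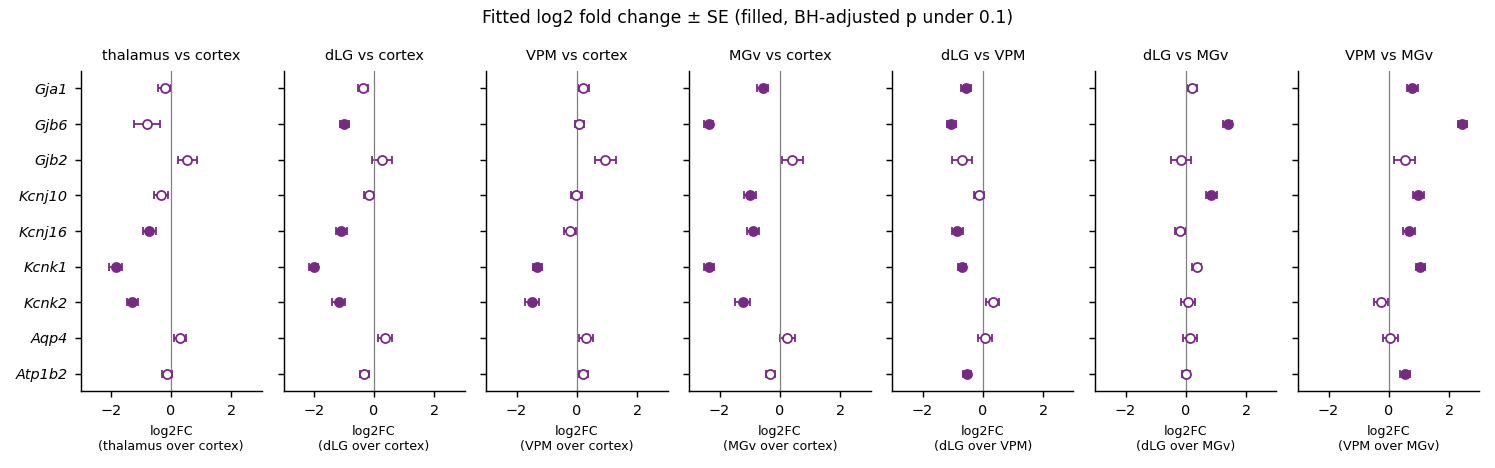
Fitted log2FC (x axis, first-named place over second, ± SE) of the 9 genes (rows) in 7 comparisons (panels); filled points have a BH-adjusted p under 0.1 in edgeR’s quasi-likelihood test. Kcnk1 and Kcnk2 lie left of 0 in all 4 comparisons with the cortex, and the point farthest right in the VPM over MGv panel is Gjb6 at 2.44.

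Among the connexins, *Gja1* lies on chromosome 10 from 56377330 to 56402513 on the plus strand and encodes the connexin found at the great majority of astrocyte gap junctions. The cortical libraries were at 1666, 1849, 1469, and 1656 CPM and those of the VPM at 1544, 1894, 2311, and 1880 CPM. The dLG libraries were at 1198, 1480, 1350, 1508, and 938 CPM and those of the MGv at 1007, 819, 1531, and 1126 CPM. All VPM libraries lay above all libraries of the dLG and the MGv, while the cortex overlapped with each nucleus. *Gja1* was 1.70-fold higher in the VPM than in the MGv (log2FC 0.77, SE 0.18, adjusted p = 0.0156) and 1.47-fold higher in the VPM than in the dLG (log2FC dLG over VPM -0.56, SE 0.17, adjusted p = 0.0541, edgeR). In the MGv it was below the cortex (log2FC -0.57, SE 0.18, adjusted p = 0.0538, edgeR). This call was lost when any of 6 single libraries was left out, with adjusted p between 0.105 and 0.224. It was also lost with the dissociation response covariate (log2FC -0.62, adjusted p = 0.289) or with libraries of the largest number series alone (log2FC -0.46, adjusted p = 0.286, edgeR). The call between VPM and MGv was lost with that covariate too (log2FC 0.83, adjusted p = 0.214, edgeR). For thalamus over cortex the log2FC was -0.22 (SE 0.20, adjusted p = 0.599, edgeR). The call between dLG and VPM was also lost without dLG replicate e, VPM replicate c, or VPM replicate d, with adjusted p between 0.138 and 0.232, with the replicate letters as a block (log2FC -0.45, adjusted p = 0.115), in a fit without the cortex (adjusted p = 0.106), with the dissociation response covariate (adjusted p = 0.127), and within the largest number series (adjusted p = 0.343, edgeR). In order of fitted level, the VPM came before the cortex, the dLG, and the MGv, and no neighbors in this order passed the threshold, although the 95% interval for dLG over cortex, -0.69 to -0.02, lay below 0 (adjusted p = 0.181, edgeR).

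*Gjb6* encodes a second astrocyte connexin, which in the brain appears later in development than that of *Gja1*. The cortical libraries were at 149, 176, 147, and 131 CPM and those of the VPM at 123, 152, 165, and 192 CPM. The dLG libraries were at 63.3, 78.9, 84.8, 80.6, and 73.5 CPM and those of the MGv at 36.4, 29.1, 25.9, and 25.1 CPM. The cortex and the VPM overlapped, all dLG libraries lay below both, and all MGv libraries lay below those of the dLG.

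The difference between VPM and MGv was 5.41-fold (log2FC 2.44, SE 0.16, adjusted p = 9.19e-08, edgeR) and had the lowest p of all 17856 genes in that comparison. The dLG was 2.61-fold above the MGv (log2FC 1.39, SE 0.15, adjusted p = 4.38e-05, edgeR) and 2.07-fold below the VPM (log2FC -1.05, SE 0.14, adjusted p = 0.000415, edgeR). Against the cortex, *Gjb6* was 1.97-fold lower in the dLG (adjusted p = 0.000126) and 5.16-fold lower in the MGv (adjusted p = 8.2e-09), and in the VPM its log2FC was 0.07 (SE 0.15, adjusted p = 0.909, edgeR). With the thalamus taken as 1 group of 13 libraries, which ranged from 25.1 to 192 CPM, the log2FC was -0.79 (SE 0.42, adjusted p = 0.293, edgeR). With the mean of the 3 nuclei set against the cortex in the fit of 4 groups, it was -1.09 (SE 0.12, adjusted p = 2.0e-06, edgeR), and in that comparison 5 of the 9 genes were lower in the thalamus, *Kcnj10* in addition, with 15.6% of all genes called and 8.48% lower. Within the 10 libraries of the largest number series, *Gjb6* remained lower in the MGv than in the VPM (log2FC VPM over MGv 2.57, adjusted p = 7.57e-05) and than in the dLG (log2FC dLG over MGv 1.29, adjusted p = 0.011, edgeR).

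Genes that tissue dissociation is known to induce moved with *Gjb6* in the opposite direction. Over the 5 such genes (*Fos*, *Junb*, *Egr1*, *Atf3*, and *Hspa1a*), 4 differed among the 4 places, all but *Hspa1a*, beside 26.3% of all genes. *Atf3* was at 0 in the lowest library. Their summed level was 3923 to 5333 CPM in the MGv, 2181 to 3059 CPM in the dLG, 571 to 2199 CPM in the VPM, and 605 to 3250 CPM in the cortex. Every MGv library thus lay above every library of the other places. A fit with these genes as a covariate can therefore hardly tell them apart from the place for the MGv. Cortex replicate a, at 3250 CPM of these genes, had 149 CPM of *Gjb6*, where the cortical libraries ranged from 131 to 176 CPM. From 1 library it cannot be told how the levels relate. With their mean log2 level as a covariate, an alternative added after the data were seen, *Gjb6* was still higher in the VPM than in the MGv (log2FC 2.17, adjusted p = 0.000784) and in the dLG than in the MGv (log2FC 1.26, adjusted p = 0.00118, edgeR). Of the 6 genes higher in the VPM than in the MGv, *Gjb6* was the only one that passed the threshold with this covariate. Of the 6 genes lower in the MGv than in the cortex, 3 passed it, *Gjb6*, *Kcnk1*, and *Kcnj10*. For neither comparison was the share of all genes passing with the covariate counted. Within places, the mean log2 level of these genes had a Pearson correlation of -0.37 with that of *Gjb6* over the 17 libraries, and their part in the level of *Gjb6* beyond this fit was not tested.

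**Figure D3:**
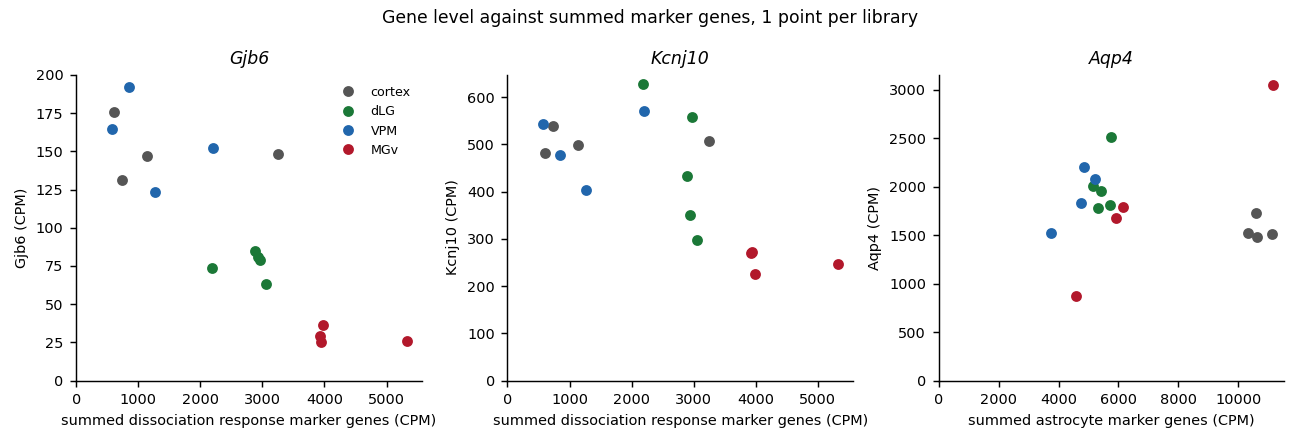
Level of Gjb6 and Kcnj10 (CPM) against the summed level of 5 dissociation response genes, and level of Aqp4 against the summed level of 9 astrocyte genes; each point is 1 library, colored by place, on linear axes from 0. The MGv libraries lie at 3923 to 5333 CPM of dissociation response genes with at most 36.4 CPM of Gjb6 and 271 CPM of Kcnj10, and the MGv libraries span 872 to 3046 CPM of Aqp4.

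*Gjb2* encodes a connexin that in the brain is best known from the leptomeninges and had the fewest counts of the 9 genes. It ranged from 5.89 to 9.44 CPM in the cortex, from 3.73 to 13.0 CPM in the dLG, from 8.74 to 17.4 CPM in the VPM, and from 6.66 to 13.9 CPM in the MGv. All 4 ranges overlapped, and the spread within the dLG, 3.50-fold from lowest to highest library, was wider than the differences between group means. In the VPM the log2FC over the cortex was 0.94 (95% interval 0.24 to 1.63, adjusted p = 0.145, edgeR), which passed the threshold with DESeq2 (log2FC 0.93, adjusted p = 0.0909), with neuronal and oligodendrocyte lineage markers as covariates (log2FC 1.26, adjusted p = 0.0765, edgeR), and within the largest number series (log2FC 1.29, adjusted p = 0.0881, edgeR). Over all 4 places the adjusted p was 0.205 (edgeR). The 5 genes of leptomeningeal fibroblasts summed to 18.7 to 31.6 CPM in the cortex, 9.83 to 18.2 CPM in the dLG, 13.3 to 19.8 CPM in the VPM, and 14.4 to 32.7 CPM in the MGv. After centering within each place, the mean log2 level of these genes had a Pearson correlation of 0.72 with that of *Gjb2* over the 17 libraries, and their part in the level of *Gjb2* was not tested.

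Ratios of the counts of 2 genes within the same library do not depend on the scaling between libraries. They were compared by 2-sided exact permutation tests of mean log2 ratios, with BH adjustment over 16 tests of 4 ratios. *Gjb6* reached 0.0908 ± 0.00886 of the counts of *Gja1* in the cortex (SD, n = 4), 0.0833 ± 0.0132 in the VPM (SD, n = 4), 0.0602 ± 0.011 in the dLG (SD, n = 5), and 0.0278 ± 0.00966 in the MGv (SD, n = 4). The ratio was 3.12-fold higher in the VPM than in the MGv (p = 0.0286 in the exact test, adjusted p = 0.0564, with all 4 VPM libraries above all 4 of the MGv), and that p is the smallest that 4 against 4 libraries can give. With 1 of these libraries left out it cannot fall below 0.0571, and the adjusted p passed 0.1 without MGv replicate c or d or VPM replicate a, b, or d. It was 2.25-fold higher in the dLG than in the MGv (exact permutation p = 0.0159, adjusted p = 0.0508) and 1.39-fold lower in the dLG than in the VPM (exact permutation p = 0.0317, adjusted p = 0.0564), a call lost without VPM replicate a, b, or d, with adjusted p between 0.114 and 0.127. For thalamus over cortex the difference in log2 ratio was -0.82 (exact permutation p = 0.0143, adjusted p = 0.0508).

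*Gjb2* counts were between 0.043 and 0.0539 of those of *Gjb6* in the cortex and between 0.222 and 0.537 of them in the MGv. For these neighboring genes the ratio was 2.90-fold higher in the thalamus than in the cortex (exact permutation p = 0.00168, adjusted p = 0.0202). It was 3.74-fold higher in the MGv than in the VPM (exact permutation p = 0.0286, adjusted p = 0.0564, between 0.102 and 0.114 without MGv replicate c or d or VPM replicate a, b, or d) and 3.14-fold higher in the MGv than in the dLG (exact permutation p = 0.0159, adjusted p = 0.0508). Between dLG and VPM the log2 difference was 0.25 (exact permutation p = 0.619, adjusted p = 0.619). In the dLG this ratio ranged from 0.0511 to 0.206 between libraries.

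**Figure D4:**
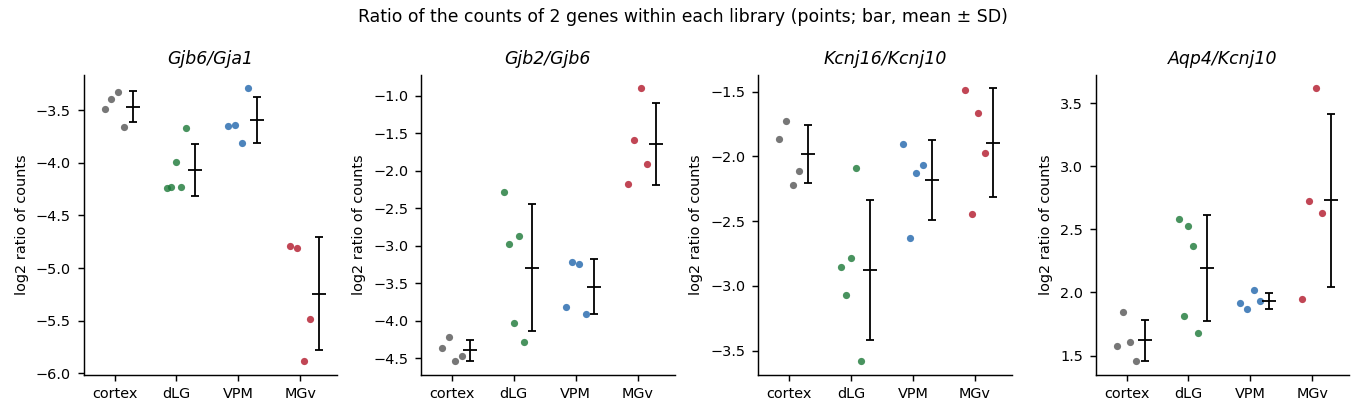
Log2 ratio of the counts of 2 genes within each library (y axis) for 4 pairs of genes in the cortex, dLG, VPM, and MGv; points are libraries and bars are mean ± SD. The 4 MGv libraries lie lowest for Gjb6 over Gja1, with a mean log2 ratio of -5.24, against -3.47 in the cortex.

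Of the inward rectifiers, *Kcnj10*, on chromosome 1 from 172341210 to 172374085 on the plus strand, encodes a channel that sets the resting potential of astrocytes and takes up potassium. The cortical libraries were at 507, 482, 498, and 538 CPM, within 1.12-fold of each other. The dLG libraries were at 297, 557, 434, 350, and 628 CPM, and those of the VPM at 403, 571, 543, and 478 CPM. The MGv libraries were at 225, 270, 248, and 271 CPM, below every library of the other places. The dLG spanned the range of the cortex and the VPM, with a coefficient of variation of 30.5% against 4.64% in the cortex. *Kcnj10* was 1.995-fold lower in the MGv than in the cortex (log2FC -0.997, SE 0.19, adjusted p = 0.00166, edgeR) and 1.97-fold lower than in the VPM (log2FC VPM over MGv 0.97, SE 0.19, adjusted p = 0.00437, edgeR). Against the dLG it was 1.79-fold lower (log2FC dLG over MGv 0.84, SE 0.18, adjusted p = 0.0277, edgeR). The cortex, the VPM, and the dLG followed each other, and no neighbors among them passed the threshold.

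The dissociation response genes were highest in the MGv, where *Kcnj10* was lowest. Within places, their mean log2 level had a Pearson correlation of -0.098 with *Kcnj10* over the 17 libraries. With their level as a covariate the MGv stayed below the cortex (log2FC -0.93, adjusted p = 0.098), while the differences of 0.90 from the VPM (adjusted p = 0.178) and 0.80 from the dLG (adjusted p = 0.241, edgeR) no longer passed the threshold. Within the largest number series the log2FC was -1.01 for MGv over cortex (adjusted p = 0.0155) and 0.97 for VPM over MGv (adjusted p = 0.0277), and 0.75 for dLG over MGv (adjusted p = 0.401, edgeR). With the number series as a covariate, the difference between dLG and MGv was 0.84 (adjusted p = 0.117, edgeR).

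*Kcnj16* encodes a subunit that joins with that of *Kcnj10* into channels sensitive to pH, and it lies on chromosome 11 from 110968033 to 111027968 on the plus strand. In the cortex it was at 139, 145, 107, and 125 CPM and in the libraries of the VPM at 107, 92.3, 124, and 114 CPM. The dLG libraries were at 41.1, 66.1, 63.1, 82.5, and 52.4 CPM and those of the MGv at 80.3, 49.6, 78.3, and 69.1 CPM. All libraries of the dLG and the MGv lay below all of the cortex and the VPM. In contrast to *Kcnj10*, the dLG grouped with the MGv for this gene. *Kcnj16* was 2.12-fold lower in the dLG than in the cortex (log2FC -1.08, SE 0.18, adjusted p = 0.000448) and 1.86-fold lower in the MGv (log2FC -0.90, SE 0.19, adjusted p = 0.00485, edgeR). From the VPM the dLG differed by -0.84 (SE 0.18, adjusted p = 0.0108) and the MGv by a log2FC, VPM over MGv, of 0.66 (SE 0.19, adjusted p = 0.0375, edgeR). Between VPM and cortex the log2FC was -0.24 (SE 0.19, adjusted p = 0.63), and between dLG and MGv it was -0.18 (SE 0.18, adjusted p = 0.998, edgeR).

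For thalamus over cortex, *Kcnj16* had a log2FC of -0.72 (SE 0.22, adjusted p = 0.047, edgeR). This call was lost without cortex replicate a, b, or d, with adjusted p between 0.116 and 0.165, within the largest number series (log2FC -0.57, adjusted p = 0.441), and with the dissociation response covariate (log2FC -0.56, adjusted p = 0.115). The call between VPM and MGv was lost without MGv replicate b or VPM replicate a, c, or d, with adjusted p between 0.102 and 0.149, and with the neuronal and oligodendrocyte lineage covariates (log2FC 0.57, adjusted p = 0.1996) or the dissociation response covariate (log2FC 0.59, adjusted p = 0.399, edgeR). The dissociation response covariate also ended the call between MGv and cortex (log2FC -0.84, adjusted p = 0.15), and that between dLG and VPM was lost within the largest number series (log2FC -1.12, adjusted p = 0.117, edgeR).

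The ratio of *Kcnj16* to *Kcnj10* was lowest in the dLG. The counts of *Kcnj16* were 0.144 ± 0.0563 of those of *Kcnj10* there (SD, n = 5), against 0.256 ± 0.0398 in the cortex, 0.224 ± 0.0445 in the VPM, and 0.278 ± 0.0754 in the MGv (SD, n = 4 each). The difference in log2 ratio was -0.98 between dLG and MGv (exact permutation p = 0.0317, adjusted p = 0.0564) and -0.69 between dLG and VPM (exact permutation p = 0.0476, adjusted p = 0.0762). The first call was lost without MGv replicate c or d, and the second without any 1 of 10 libraries, with adjusted p up to 0.166. For thalamus over cortex it was -0.38 (exact permutation p = 0.237, adjusted p = 0.29). The single dLG libraries ranged from 0.0835 to 0.235, and the highest of them overlapped with the cortex (0.215 to 0.302), the VPM, and the MGv. The dLG alone was not tested against the cortex for this ratio.

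The two-pore channels were lower in every nucleus than in the cortex. *Kcnk1*, on chromosome 8 from 125995170 to 126030685 on the plus strand, encodes a potassium channel that contributes to the passive conductance of astrocytes. Cortical libraries were at 208, 220, 219, and 202 CPM. The VPM libraries were at 91.7, 63.0, 87.7, and 99.8 CPM, and the dLG libraries at 49.1, 48.1, 69.3, 52.2, and 45.8 CPM. The MGv libraries were at 45.4, 39.3, 35.2, and 45.8 CPM. Every cortical library was above every thalamic one, and the VPM was above the MGv throughout, while dLG replicate c, at 69.3 CPM, overlapped with the VPM. The log2FC was -1.84 for thalamus over cortex (SE 0.21, adjusted p = 6.07e-06, edgeR). Per nucleus it was -1.31 in the VPM (SE 0.15, adjusted p = 1.33e-05), -2.004 in the dLG (SE 0.15, adjusted p = 1.76e-08), and -2.36 in the MGv (SE 0.16, adjusted p = 8.2e-09, edgeR). *Kcnk1* was thus 5.12-fold lower in the MGv than in the cortex.

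Within the thalamus, *Kcnk1* was 2.06-fold higher in the VPM than in the MGv (log2FC 1.05, SE 0.15, adjusted p = 0.000614) and 1.62-fold higher than in the dLG (log2FC dLG over VPM -0.69, SE 0.14, adjusted p = 0.00964, edgeR). Between dLG and MGv the log2FC was 0.35, with a 95% interval above 0 (0.07 to 0.64) but no call after adjustment over all genes (adjusted p = 0.603, edgeR). Another annotated gene on the opposite strand, *Gm45875*, covers 8.01% of the exonic length of *Kcnk1*, and whether the counting used strand is not stated. Within places, the mean log2 level of the 10 neuronal markers had a Pearson correlation of 0.68 with *Kcnk1* over the 17 libraries. The summed level of these markers was 774 to 1016 CPM in the cortex, within the range of thalamic libraries of 444 to 1627 CPM. With the dissociation response covariate the difference between dLG and VPM was -0.49 (adjusted p = 0.103) and that between VPM and MGv 0.68 (adjusted p = 0.188, edgeR).

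*Kcnk2* encodes a two-pore channel that responds to membrane stretch, temperature, and lipids and lies on chromosome 1 from 189207930 to 189402273 on the minus strand. In the cortex it was at 69.3, 63.6, 81.3, and 59.5 CPM, and those of the dLG at 23.3, 27.5, 40.5, 28.4, and 31.6 CPM. The VPM libraries were at 34.3, 15.2, 26.7, and 20.9 CPM and those of the MGv at 36.3, 31.1, 18.7, and 29.9 CPM. The cortex was above every thalamic library, and the 3 nuclei overlapped. For thalamus over cortex the log2FC was -1.29 (SE 0.18, adjusted p = 7.81e-05, edgeR). It was -1.49 in the VPM (SE 0.24, adjusted p = 0.00039), -1.18 in the dLG (SE 0.22, adjusted p = 0.00157), and -1.24 in the MGv (SE 0.24, adjusted p = 0.00213, edgeR). Between the nuclei, log2FCs were 0.32 for dLG over VPM (95% interval -0.12 to 0.76), 0.06 for dLG over MGv (-0.38 to 0.50), and -0.26 for VPM over MGv (-0.72 to 0.21), with adjusted p of 0.398, 0.998, and 0.544 (edgeR). With the dissociation response covariate the difference between MGv and cortex was -0.78 (adjusted p = 0.222, edgeR). The antisense gene *A430027H14Rik* covers 12.2% of the exonic length of *Kcnk2*.

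Both two-pore channels kept their calls between thalamus and cortex within the largest number series, with a log2FC of -1.90 for *Kcnk1* (adjusted p = 0.00282) and -1.38 for *Kcnk2* (adjusted p = 0.00275, edgeR). Other genes were also higher in the cortex. Of the 9 astrocyte markers, 4 were higher in the cortex (*Slc1a3*, *Aldoc*, *Slc1a2*, and *Glul*) and 1 was higher in the thalamus (*S100b*), beside 5.93% and 5.45% of all genes. Within places, *Kcnk1* and *Kcnk2* had Pearson correlations over the 17 libraries of -0.51 and -0.60 with the mean log2 level of the astrocyte markers. The correlations were 0.43 and 0.52 with the oligodendrocyte lineage markers and 0.68 and 0.44 with the neuronal markers. The mural gene *Pdgfrb* and the ependymal genes *Foxj1* and *Rsph1* were higher in the cortex too, with summed levels of 37.4 to 63.5 CPM for 4 mural genes and 3.48 to 94.0 CPM for 4 ependymal genes in the cortex, against 2.02 to 33.7 CPM and 0.283 to 8.49 CPM in thalamic libraries. Of the endothelial genes, each of the 5 was at 0 in at least 1 library. The part of these other cell types in the levels of *Kcnk1* and *Kcnk2* was not tested.

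*Aqp4*, on chromosome 18 from 15389496 to 15410982 on the minus strand, encodes the main water channel of the brain. The cortical libraries were at 1513, 1727, 1517, and 1475 CPM and those of the VPM at 1523, 2079, 2202, and 1827 CPM. The dLG libraries were at 1783, 1955, 2507, 1813, and 2010 CPM and those of the MGv at 872, 1791, 3046, and 1679 CPM. All 5 dLG libraries lay above all 4 cortical ones, and the MGv held both the lowest and the highest library of the series. No comparison passed the threshold in the main fits. The log2FC was 0.31 for thalamus over cortex (95% interval -0.08 to 0.70, adjusted p = 0.404), 0.37 for dLG over cortex (-0.08 to 0.82, adjusted p = 0.316), and 0.25 for MGv over cortex (-0.23 to 0.72, adjusted p = 0.578, edgeR). With the levels of neuronal and oligodendrocyte lineage markers as covariates, *Aqp4* was higher in the dLG than in the cortex (log2FC 0.66, adjusted p = 0.0751, edgeR).

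The spread of *Aqp4* within the MGv went only in part with that of *Gfap*. MGv replicate c, the highest for *Aqp4*, had 5519 CPM of *Gfap*, and MGv replicate a, the lowest, had 36.1 CPM, while the other 8 astrocyte markers summed to 5647 and 4555 CPM in these libraries. MGv replicates b and d, at 1791 and 1679 CPM of *Aqp4*, had 600 and 1292 CPM of *Gfap*. The neuronal markers summed to 1627, 463, 444, and 1324 CPM in MGv replicates a, b, c, and d. After centering within each place, the Pearson correlation of *Aqp4* over the 17 libraries was 0.61 with *Gfap*, 0.39 with the mean log2 level of the other astrocyte markers, and -0.59 with that of the neuronal markers. These values describe libraries that share their place and scaling. Without MGv replicate c, the log2FC of *Aqp4* for MGv over cortex changed from 0.25 to -0.08.

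Relative to *Kcnj10*, with which it shares a place at the endfeet, *Aqp4* was higher in the thalamus. The counts of *Aqp4* were 3.09 ± 0.355 times those of *Kcnj10* in the cortex (SD, n = 4) and 3.83 ± 0.171 times in the VPM (SD, n = 4). They were 4.73 ± 1.30 times in the dLG (SD, n = 5) and 7.24 ± 3.58 times in the MGv (SD, n = 4). The ratio was 1.58-fold higher in the thalamus than in the cortex (exact permutation p = 0.00252, adjusted p = 0.0202). Between VPM and MGv the log2 difference was -0.80 (exact permutation p = 0.0571, adjusted p = 0.0831), with the lowest MGv library at 3.87 and the highest at 12.3, a call lost without any 1 of 6 libraries, among them MGv replicate c (adjusted p between 0.152 and 0.166).

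*Atp1b2* encodes the glial beta subunit of the sodium pump, which returns potassium from the extracellular space into astrocytes, and lies on chromosome 11 from 69599736 to 69605942 on the minus strand. It ranged from 871 to 920 CPM in the cortex, from 583 to 899 CPM in the dLG, from 897 to 1194 CPM in the VPM, and from 602 to 876 CPM in the MGv. The VPM lay above the MGv in every library and overlapped with the dLG by 1 library on each side. It was 1.45-fold higher in the VPM than in the MGv (log2FC 0.53, SE 0.15, adjusted p = 0.0357) and 1.44-fold higher than in the dLG (log2FC dLG over VPM -0.53, SE 0.14, adjusted p = 0.0334, edgeR). Without VPM replicate c or VPM replicate d neither call remained, with adjusted p between 0.111 and 0.157, and the call between VPM and MGv was also lost without MGv replicate a or d (adjusted p of 0.103 and 0.13, edgeR). With the dissociation response covariate the log2FC was 0.27 for VPM over MGv (adjusted p = 0.647) and -0.38 for dLG over VPM (adjusted p = 0.204, edgeR). The first call was also lost with the neuronal and oligodendrocyte lineage covariates (log2FC 0.58, adjusted p = 0.106) and the second within the largest number series (log2FC -0.58, adjusted p = 0.306, edgeR). For thalamus over cortex the log2FC was -0.14 (95% interval -0.47 to 0.19, adjusted p = 0.693, edgeR). Within places, *Atp1b2* had a Pearson correlation of -0.79 with the mean log2 level of the 6 microglial genes over the 17 libraries. Those genes summed to 6.68 to 11.2 CPM in the VPM, 10.9 to 91.8 CPM in the dLG, and 11.8 to 54.5 CPM in the MGv, and their part in this result was not tested.

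Levels can be compared between genes only per length of transcript. In CPM per kilobase of exonic length, *Aqp4* was highest in every place, at 250 in the cortex and 323 in the dLG, and *Atp1b2* came next, at 220 and 176. *Gja1* stood at 162 in the cortex and 126 in the dLG with the union of its exons, 10257 bases, as its length. With its longest transcript, 3889 bases, it stood at 427 and 333, and it then came first in the cortex and the VPM and behind *Aqp4* in the dLG and the MGv. *Kcnk1* came before *Kcnj10* in the cortex, at 94.9 and 93.6, and after it in all 3 nuclei. *Gjb6* ranked behind *Kcnk1* and *Kcnj16* in the MGv, at 10.9, while in the dLG and the VPM it ranked ahead of both, at 28.5 and 59.1.

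Within places, few of the 9 genes varied together. With the level of each gene centered in each place, the highest Pearson correlations over the 17 libraries were 0.71 for *Kcnk1* with *Kcnk2*, 0.66 for *Gja1* with *Kcnj16*, and 0.62 for *Gja1* with *Gjb2*, and the lowest was -0.63 for *Gjb2* with *Kcnk2*. Without centering, *Gjb6* and *Kcnj10* had a correlation of 0.82, against 0.13 with it. Among all genes tested, the one most like each member over the 17 libraries, without centering, was *Pnlip* for *Kcnk1* (r = 0.98), *Agpat5* for *Kcnj16* (r = 0.95), *Prnp* for *Gjb6* (r = 0.94), *Pm20d1* for *Gja1* (r = 0.93), and *Cadm1* for *Kcnk2* (r = 0.92). For the other members it was *Fbxo48* for *Gjb2* (r = 0.90), *Gpr37l1* for *Atp1b2* (r = 0.88), *Lcat* for *Aqp4* (r = 0.86), and *Eno1b* for *Kcnj10* (r = 0.82). Each is the highest of 17856 correlations over libraries that share their place.

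The families of these genes were described from wider lists that leave out the 9. Calls for these lists are between thalamus and cortex unless the 4 places are named. Of 87 genes listed, 75 were in the files and 58 were tested, with 8 called toward the thalamus and 6 toward the cortex, beside a background of 5.45% and 5.93% of all genes, and with a median log2FC of 0.09 against 0.02 over all genes. Of 10 other connexins and pannexins tested, 3 were higher in thalamic libraries and 1 in cortical ones, and from which cells their RNA came was not tested. *Gja5*, a connexin known from arteries and the heart, was at 0.721 to 6.65 CPM in thalamic libraries and at 0 to 0.541 CPM in cortical ones, of which 2 had more than 3 counts (log2FC 3.64, SE 0.82, adjusted p = 0.00695, edgeR). *Gjd2*, the main connexin of neurons, reached 11.4 ± 8.27 CPM over the thalamic libraries (SD, n = 13) against 2.65 ± 1.42 CPM over the cortical ones (SD, n = 4), with an adjusted p of 0.0541 (edgeR). By nucleus it was at 19.5 CPM in the dLG, 8.17 CPM in the MGv, and 4.54 CPM in the VPM. The VPM libraries (0.948 to 6.60 CPM) overlapped with the cortex (1.34 to 4.67 CPM). The third was *Gjb1*, a connexin of oligodendrocytes, at 20.7 against 14.8 CPM (adjusted p = 0.0846, edgeR), which the rule for named genes did not pick and which was named after its values were seen. *Gjc1* was higher in the cortex, at 31.8 ± 2.39 CPM against 17.7 ± 6.51 CPM (adjusted p = 0.045, edgeR).

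Of 9 other inward rectifiers, *Kcnj6*, which forms channels gated by G proteins, was higher in the thalamus, at 3.18 against 0.691 CPM (adjusted p = 0.0451, edgeR), with 4.49 CPM in the dLG and 3.96 CPM in the MGv but 0.768 CPM in the VPM, where the libraries (0.613 to 1.101 CPM) lay within the range of the cortex (0.346 to 1.30 CPM). *Kcnj4* was higher in the cortex, at 1.14 to 2.99 CPM, while in the thalamus only 3 of 13 libraries had more than 3 counts (adjusted p = 0.000818, edgeR). Of 7 other two-pore channels, *Kcnk3*, an acid-sensitive channel, was higher in the thalamus, at 15.6 ± 7.02 against 3.41 ± 0.62 CPM (log2FC 2.20, SE 0.37, adjusted p = 0.000582, edgeR). *Kcnk10*, a close relative of *Kcnk2*, was higher in the cortex, at 105 ± 16.3 against 48.9 ± 13.3 CPM (log2FC -1.10, SE 0.19, adjusted p = 0.000867, edgeR). For this pair of relatives, *Kcnk2* and *Kcnk10*, the lowest cortical library lay above the highest thalamic one.

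Of 11 other sodium pump subunits and FXYD regulators, 1 was called in each direction. *Atp1b1*, the other major beta subunit, had 452 ± 26.3 CPM in cortical libraries against 160 ± 63.2 CPM in thalamic ones (log2FC -1.50, SE 0.26, adjusted p = 0.000653, edgeR), unlike *Atp1b2*. *Fxyd7*, a regulator of the pump in the brain, was at 18.2 against 50.2 CPM (adjusted p = 0.0104, edgeR). Of the 4 other aquaporins tested, 0 were called by edgeR between thalamus and cortex. In that comparison 2, *Aqp9* and *Aqp11*, had an unadjusted p under 0.05, and the log2FCs of the 4 ranged from -1.53 to 0.99. Over the 4 places 2 were called, beside 26.3% of all genes, *Aqp11* (adjusted p = 0.0608) and *Aqp3* (adjusted p = 0.0938, edgeR). *Aqp3* was low, with place means of 0.126 to 1.59 CPM.

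Of 10 genes of the complex that anchors *Aqp4* at the endfoot, *Lama2* alone was called between thalamus and cortex, with 8.69 CPM in thalamic libraries against 5.34 CPM in cortical ones (adjusted p = 0.0442, edgeR), and the median log2FC of the list was -0.03. Over the 4 places 2 were called, beside 26.3% of all genes, *Lama2* (adjusted p = 0.0585) and *Agrn* (adjusted p = 0.00223, edgeR). *Agrn* was at 399 ± 180 CPM in the dLG and 295 ± 64.3 CPM in the MGv. In the VPM it was at 145 ± 34.8 CPM and in the cortex at 143 ± 46.6 CPM (SD). Of 7 partners in cell volume and ion transport, *Mlc1* and *Hepacam*, whose products form a complex at astrocyte junctions, were higher in the cortex. *Mlc1* was at 1081 ± 51.6 against 639 ± 86.6 CPM (log2FC -0.76, SE 0.11, adjusted p = 9.88e-05) and *Hepacam* at 567 ± 18.8 against 437 ± 67.2 CPM (log2FC -0.37, SE 0.12, adjusted p = 0.0665, edgeR). *Slc4a4*, a sodium bicarbonate cotransporter, was higher in the thalamus, at 801 ± 159 against 574 ± 32.7 CPM (log2FC 0.48, SE 0.15, adjusted p = 0.0553, edgeR).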

How the data were processed

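RNA was measured by bulk RNA-seq (single-end reads) in 17 libraries of FACS-purified astrocytes. The authors deposited raw read counts per gene and library, made with STAR 2.7.0d, SAMtools 1.9, and featureCounts of Subread 1.6.4 on mm10 according to the submitters’ processing notes, and whether strand was used in counting is not given in the sources used here. Gene symbols and positions came from the GENCODE annotation of GRCm38. Library totals were 18213687 to 50366363 counts, so that 3 counts, the floor used here, equal 0.0596 to 0.165 CPM.

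Counts were fitted with edgeR 4.0.16 (R 4.3.3; robust quasi-likelihood, TMM, filterByExpr) as 2 groups (thalamus and cortex) and as 4 groups, with p-values adjusted over all genes tested and a threshold of 0.1. Standard errors were |log2FC| divided by the square root of F, and 95% intervals were normal. Ratios were taken as log2 of counts plus 0.5 and compared by exact permutation (scipy 1.17.1). Correlations used log2(CPM + 0.5). Alternatives included DESeq2 1.42.0, its size factors, other filters, covariates, and leaving out each library.

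The 9 genes, the wider lists, and the marker lists were chosen with earlier results of these data known. Named genes were the 9, from each wider list up to 2 called genes with the lowest p in each direction, and the gene most like each of the 9. Of the marker lists, 0 of 7 oligodendrocyte lineage, 0 of 6 microglial, 0 of 5 endothelial, and 0 of 5 dissociation response genes were called by edgeR between thalamus and cortex, beside 11.4% of all genes. Of 10 neuronal genes, 3 were called toward the thalamus and 1 toward the cortex, beside 5.45% and 5.93% of all genes. Of 5 fibroblast genes, 3 were tested, 1 higher in each.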

Additional observations from a re-analysis of the deposited data

Results flagged for a closer look

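Among 52 groups of 4 or 5 libraries examined for a library far from the others, 2 had one, and chance alone gives about 1 in 20. *Kcnk1* in dLG replicate c was at 69.3 CPM, against 45.8 to 52.2 CPM in the other dLG libraries, a gap of 0.729 of the whole range. This library is also the only one of its number series. *Aqp4* in cortex replicate b was at 1727 CPM, against 1475 to 1517 CPM in the other cortical libraries, a gap of 0.831 of the range.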

How the results depend on the processing

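Over 106 results, settings other than leaving out a library kept direction and side of the threshold in 800 cases, lost the threshold in 53, gained it in 8, and turned the direction in 21, and the cause was not tested. Without single libraries the numbers were 1561, 62, 4, and 22. The mean of the 3 nuclei against the cortex gave 5 of the 9 genes in place of 3. For the other settings of this section, the replicate block included, the share of all genes called was not counted, so their counts have no background. With the dissociation response covariate, 3 genes differed between MGv and cortex, 2 between dLG and VPM, 1 between dLG and MGv, and 1 between VPM and MGv. Within the largest number series these were 2 for dLG and VPM and 1 for dLG and MGv, and 0 ratios, where p could not fall below 0.133 between nuclei of 4 and 2 libraries or 0.333 between nuclei of 2. For dLG and MGv, the number series covariate, the neuron and oligodendrocyte covariates, and the fit without the cortex also gave 1. Without single libraries, 3 to 5 genes differed between dLG and VPM, and 6 to 12 ratios passed.

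Log2FCs close to 0 turned direction. *Gjb2* for dLG over MGv was 0.0679 with the replicate block, 0.0437 with the series covariate, 0.2008 with the neuron and oligodendrocyte covariates, and 0.265 in the largest series. *Kcnk2* there was -0.102 with the series covariate, -0.204 with the neuron and oligodendrocyte covariates, -0.187 with the dissociation covariate, and -0.188 in the largest series. *Atp1b2* there was -0.00553 without a filter, -0.00681 with the strict filter of 10 counts, -0.116 with the dissociation covariate, and -0.000432 without the cortex, and for thalamus over cortex it was 0.0138 with the dissociation covariate. *Aqp4* for VPM over MGv was -0.00693 with DESeq2, -0.00264 with its size factors, -0.0253 without a filter, and -0.0139 with the strict filter, and for dLG over VPM it was -0.0129 with the series covariate and -0.0706 in the largest series. For VPM over cortex, *Kcnj10* was 0.0124 with the neuron and oligodendrocyte covariates and *Kcnj16* 0.0215 in the largest series.

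Leaving out single libraries gave log2FCs of -0.0473 to 0.161 for *Gjb6* and -0.0930 to 0.0566 for *Kcnj10* (VPM over cortex), and of -0.0782 to 0.5199 for *Aqp4* in MGv over cortex, -0.0129 to 0.195 in dLG over VPM, -0.119 to 0.479 in dLG over MGv, and -0.2399 to 0.358 in VPM over MGv. For dLG over MGv they were -0.3603 to 0.0793 for *Gjb2*, -0.0985 to 0.186 for *Kcnk2*, and -0.0850 to 0.109 for *Atp1b2*, and the log2 ratio of *Gjb2* to *Gjb6* for dLG over VPM was -0.000193 to 0.503.

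No pairing by replicate letter was seen. Deviations of 24 same-letter pairs correlated between -0.173 and 0.267, with 6 over 0.1. For 84 pairs of different letters the correlations were between -0.451 and 0.355, with 19 over 0.1. Of 17 libraries, 4 correlated best with their own letter. Whether libraries shared brains cannot be told from these correlations. With the replicate block, 3 genes differed between thalamus and cortex, 4 between dLG and cortex, 2 between VPM and cortex, 6 between MGv and cortex, 4 between dLG and VPM, 2 between dLG and MGv, and 6 between VPM and MGv. The call it ended was that of *Gja1* between dLG and VPM.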

Other observations

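*Gfap*, whose promoter drove the reporter used for sorting, ranged from 450.0 to 537 CPM in the cortex, 78.2 to 1308 CPM in the dLG, 36.1 to 5519 CPM in the MGv, and 8.98 to 19.2 CPM in the VPM. The VPM libraries were thus all below those of the other places.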
